A study of Mus musculus with 8 samples.

Results

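Cyclin-dependent kinase inhibitors are small proteins that bind the kinases of the cell cycle or their cyclin partners and slow division. The 7 mouse genes described here are the Cip/Kip genes Cdkn1a (p21), Cdkn1b (p27) and Cdkn1c (p57), and the INK4 genes Cdkn2a (p16, with p19Arf from another reading frame), Cdkn2b (p15), Cdkn2c (p18) and Cdkn2d (p19). They were taken by symbol, all 7 were found among the 56980 gene IDs of the deposited table, and all 7 passed the filter on low counts that left 18905 tested genes. The libraries are bulk RNA-seq of oligodendrocyte progenitors, the dividing precursors of myelinating cells, from wild-type C57BL/6 pups of postnatal day 6 to 8. The cells were captured on an antibody to PDGFRα from cortex of pups of either sex, after lectin dishes had taken away microglia and endothelial cells. All cultures were expanded with PDGF-AA and bFGF and then held in 10 ng/mL PDGF-AA alone. One group was kept in 25 mM glucose throughout (high glucose, HG), and low glucose (LG) cultures were brought in steps to 2.5 mM by day 3, with harvest on day 5. There are 4 libraries per group, numbered 1 to 4 in both.

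Cip/Kip proteins act on complexes of cyclins with CDK2 and related kinases, while INK4 proteins bind CDK4 and CDK6 and keep cyclin D from pairing with them. Both families act ahead of the retinoblastoma protein, whose phosphorylation lets E2F factors switch on genes for DNA replication. In the oligodendrocyte lineage, p27 and p57 are known for building up as progenitors leave the cell cycle and start to differentiate. p21 is the textbook target of p53, and p16, p15 and p19Arf are known for restraining cells under stress or in long culture. Much of the control of p27 is on the protein, which SCF-Skp2 marks for destruction, so its RNA is only part of its supply.

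The labels describe the libraries as independent biological preparations, but numbers 1 and 2 carry the same preparation code in both groups. In fits without the replicate number, p-values thus measure spread between libraries from 3 preparations. In fits with it, they measure how the LG to HG difference varies between same-numbered pairs. Of these, pairs 1 and 2 share a preparation. Total counts ran from 50864130 to 65733928 per library. Progenitor markers (Pdgfra, Cspg4, Olig1, Olig2, Sox10, Ptprz1 and C1ql1) summed to between 7696 and 10016 CPM (counts scaled to a common library total). The astrocyte list summed to 683 to 1882 CPM, the neuron list to 1049 to 1329, the endothelial list to 4.93 to 7.55 and the microglia list to 1.06 to 2.53. Microglial Cx3cr1 and endothelial Cldn5 and Cdh5 had no count in any library. In bulk RNA, fewer cells expressing a gene and less RNA per cell cannot be told apart.

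The inhibitor genes differed in level by more than the spread between libraries at most steps of their order. Scaled per kilobase of exon (RPKM), Cdkn1a was highest at 45.5 ± 3.70 RPKM (SD over 8 libraries). Cdkn2c followed at 30.4 ± 1.48 RPKM and Cdkn2d at 25.0 ± 2.25 RPKM. Cdkn2a at 21.8 ± 2.58 RPKM and Cdkn1b at 21.0 ± 0.593 RPKM came next. Cdkn1c was at 6.42 ± 1.86 RPKM and Cdkn2b lowest at 2.36 ± 0.972 RPKM. Neighbours in this order kept their places in 8 of 8 libraries, except that Cdkn2d was above Cdkn2a in 6 and Cdkn2a above Cdkn1b in 5, and the ranges of those neighbours overlapped. The Cip/Kip genes took 47.1% to 49.1% of the family's summed RPKM in each library. Within it, the share of Cdkn1c was 3.36% ± 0.615 in HG and 5.09% ± 1.10 in LG (SD, n = 4), and the groups overlapped. The share of Cdkn1a was 30.0% to 32.7% in HG and 27.0% to 29.4% in LG, with no overlap. A share also moves with the other genes of the family, and no like value over all genes exists. As TMM-scaled CPM the Cdkn1a groups overlapped, with HG libraries from 161 and LG libraries up to 162.

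**Figure D1:**
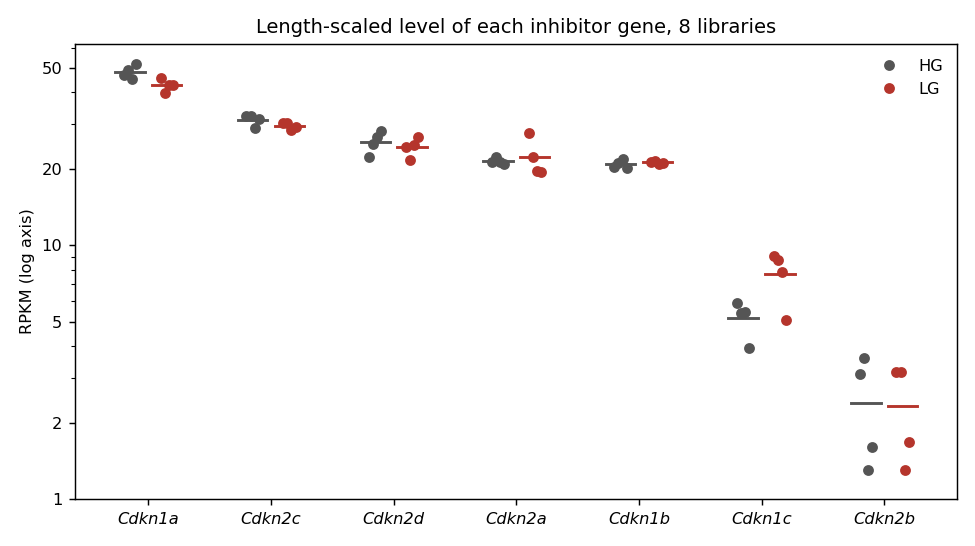
RPKM (log axis) of the 7 inhibitor genes in the 4 HG (grey) and 4 LG (red) libraries, with group means as bars, ordered by mean level. Cdkn1a is at the top with a mean of 45.5 RPKM and Cdkn2b at the bottom with 2.36 RPKM, and 3 of the 4 LG points of Cdkn1c lie above all its HG points.

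Glucose was compared by edgeR's quasi-likelihood test, with Benjamini-Hochberg adjustment over all tested genes and a threshold of 0.05. Without regard to the replicate numbers, 0 of 7 inhibitor genes passed, against 0.0% of all tested genes. Of the 7, Cdkn1c and Cdkn1a had an unadjusted p under 0.05 in that fit, as 3.94% of all genes did. DESeq2 and limma-voom in the same design also called 0 of 7, where DESeq2 called 0.0212% of all genes and limma-voom 0.0%. Same-numbered HG and LG libraries deviated together, so a fit with the replicate number as a block was run beside it. There 1 of 7 passed, Cdkn1c, higher in LG, where 0.418% of all genes passed, 0.111% as higher and 0.307% as lower. On simulated data this fit made more false calls than its threshold allows for. The fit without the block made none there, but missed most of the smaller changes put in. The ranges of the LG and HG libraries overlapped for all 7 inhibitor genes, and did not overlap for 2.89% of all genes.

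Cdkn1c was the inhibitor gene with the clearest difference. It encodes p57, the Cip/Kip protein with a part in cell cycle exit during development, from an imprinted gene expressed mainly from the maternal copy. The gene (ENSMUSG00000037664) lies on GRCm38 chromosome 7 at 143458339 to 143461050, minus strand. In HG it was at 12.1, 11.0, 11.1 and 8.01 CPM in replicates 1 to 4, and in LG at 18.4, 17.8, 15.9 and 10.3 CPM (CPM scaled by TMM factors). Replicate 4 was the lowest of both groups, and its LG value lay below 3 of the 4 HG values, so the groups overlapped. Within each pair LG was higher, by 0.60, 0.69, 0.51 and 0.37 on the log2 CPM scale for pairs 1 to 4. A gene higher in LG in 4 of 4 pairs was not rare, since 10.8% of all tested genes were.

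Group means of Cdkn1c were 10.6 ± 1.77 CPM for HG, against 15.6 ± 3.68 CPM for LG (SD, n = 4). With the replicate block Cdkn1c rose by 0.55 on the log2 scale, a 1.46-fold difference (SE 0.083, 95% interval 0.36 to 0.73, edgeR adjusted p = 0.0346). Without the block the log2 fold change was 0.56 (SE 0.193, unadjusted p = 0.0154, edgeR adjusted p = 0.9999). The call with the block held when smooth trends with GC content and transcript length were also removed (log2 fold change 0.46, edgeR adjusted p = 0.0298). It also held with the block in DESeq2 (adjusted p = 5.04e-05) and limma-voom (adjusted p = 0.0339). Those 3 fits called 0.693%, 2.51% and 0.354% of all genes.

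The call on Cdkn1c was lost when pair 1 or pair 2 was left out of the blocked fit, at edgeR adjusted p = 0.120 and 0.192, and held without pair 3 (0.0388) or pair 4 (0.0350). It was also lost with the preparation code as the block (edgeR adjusted p = 0.117) and with counts summed per preparation (0.0808). Of all genes, 0.0316%, 0.0%, 0.204% and 0.787% passed without pairs 1 to 4 in turn, 0.00529% with the preparation block and 0.0886% with the sums. The estimate stayed between 0.44 and 0.72 in all 26 alternatives run. An annotated antisense gene, Gm44732, overlaps 30.7% of the exonic bases of Cdkn1c and held 0 or 1 counts in every library. An unclassified gene, AC167363.2, overlaps 7.7% of those of Cdkn1a on the other strand, with 30 to 80 counts. The strand setting of the authors' counting is not given in the sources used here, so reads of such partners cannot be told apart.

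**Figure D2:**
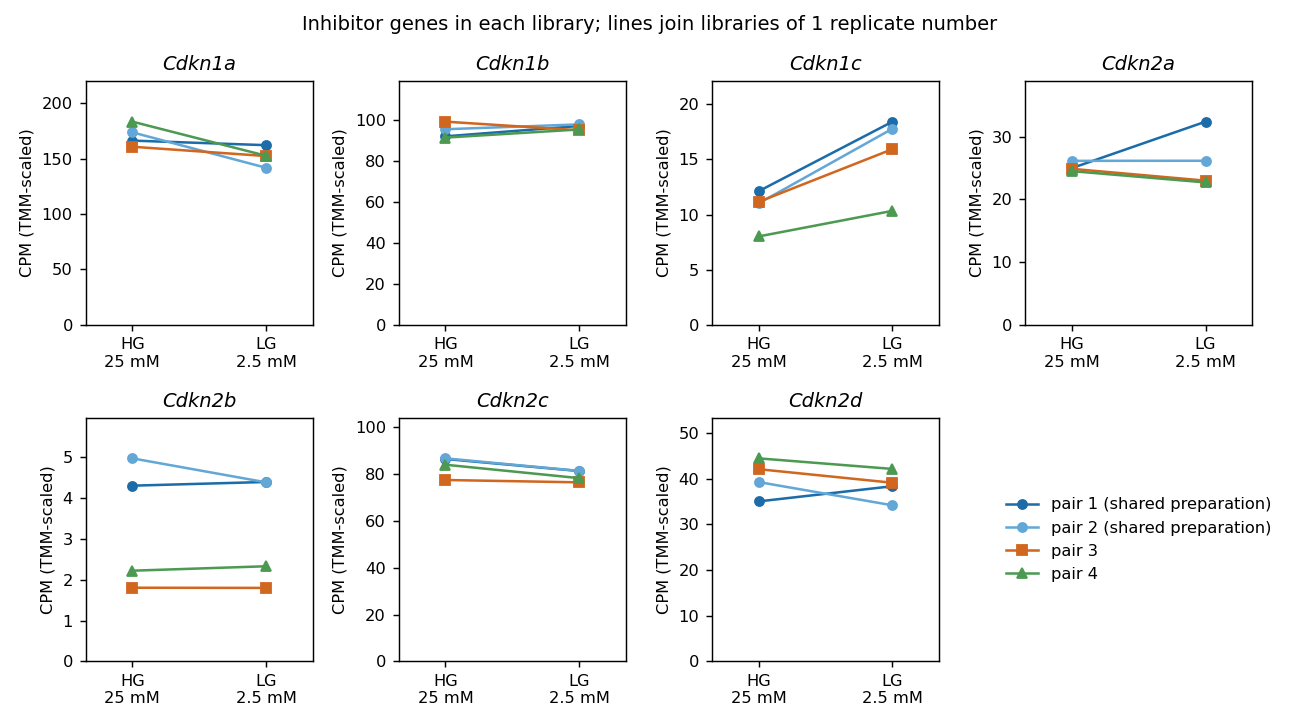
TMM-scaled CPM of each inhibitor gene in HG and LG, with a line joining the libraries of 1 replicate number and axes starting at 0. All 4 lines of Cdkn1c climb, from 8.01 to 12.1 CPM in HG to 10.3 to 18.4 CPM in LG, all 4 lines of Cdkn1a and Cdkn2c descend by a smaller fraction, and Cdkn2b separates by preparation.

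Cdkn1a had the opposite sign to Cdkn1c and did not pass. It encodes p21, which binds CDK2 complexes and PCNA and is induced by p53. The gene (ENSMUSG00000023067) lies on GRCm38 chromosome 17 at 29090976 to 29100727, plus strand. Of the RefSeq windows that run from 250 bases before to 50 after a transcription start, 9 matched 6 of the 7 genes (all but Cdkn1c). The consensus p53 response element, 2 adjoining decamers that read the same on both strands, was sought in them with at most 1 mismatch in 20 bases. It was found in 1 of the 9, the upstream start of Cdkn1a, and in 0.0883% of all 32851 windows. The window is shown because p53 targets are a group of genes described below. It is chr17:29090729-29091028 on the plus strand of GRCm38.p6, with the match, chr17:29090928-29090947, in capitals:
Cdkn1a upstream start: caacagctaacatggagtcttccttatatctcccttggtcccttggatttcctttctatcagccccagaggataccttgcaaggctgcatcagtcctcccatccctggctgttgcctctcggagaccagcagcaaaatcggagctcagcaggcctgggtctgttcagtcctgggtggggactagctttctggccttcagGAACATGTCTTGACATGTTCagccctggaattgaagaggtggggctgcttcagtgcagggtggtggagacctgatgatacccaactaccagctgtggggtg
The match describes the letters of this window and does not show binding in these cells.

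In HG, Cdkn1a was at 166, 174, 161 and 183 CPM in replicates 1 to 4, and in LG at 162, 142, 152 and 152 CPM. LG was lower in 4 of 4 pairs, by as little as 0.04 in pair 1 and as much as 0.29 in pair 2 on the log2 scale, and the highest LG library lay above the lowest HG library. That held in 4 of 4 pairs for 11.0% of all genes. With the block the log2 fold change was -0.17 (SE 0.063, 95% interval -0.31 to -0.03, edgeR adjusted p = 0.279). With GC and length trends removed as well it was -0.22 (edgeR adjusted p = 0.110), and over all 26 alternatives it ran from -0.22 to -0.13 and passed in 0.

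Cdkn1b, which encodes p27, a Cip/Kip inhibitor long studied in the timing of progenitor division, did not pass in any of the 26 alternatives either. It lies on GRCm38 chromosome 6 at 134920401 to 134925513, plus strand (ENSMUSG00000003031). It stood at 92.1, 95.6, 99.3 and 91.5 CPM in HG and at 97.2, 97.9, 95.05 and 95.5 CPM in LG. The 4 LG libraries lay inside the HG range. The log2 fold change with the block was 0.03 (SE 0.056, edgeR adjusted p = 0.865), with a 95% interval of -0.09 to 0.15. With the GC and length trends removed as well it was 0.10 (edgeR adjusted p = 0.465). Without the block the interval was -0.11 to 0.16.

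Whether Cdkn1c moved apart from its 2 relatives was tested on the log2 ratio of counts within each library, which needs no scaling between libraries. Such a ratio keeps any trends with GC content and transcript length. With those removed, the edgeR log2 fold changes with the block were 0.46 for Cdkn1c, -0.22 for Cdkn1a and 0.10 for Cdkn1b. The ratio of Cdkn1c to Cdkn1a was -4.03 ± 0.334 in HG and -3.32 ± 0.392 in LG (SD, n = 4). It was higher in LG in 4 of 4 pairs, by 0.71 on average (exact permutation test over 70 assignments, two-sided, p = 0.0857, adjusted over 2 ratios 0.114). The ratio of Cdkn1c to Cdkn1b was -3.18 ± 0.245 in HG and -2.66 ± 0.372 in LG, again higher in 4 of 4 pairs, by 0.52 (exact permutation, p = 0.114, adjusted 0.114). Neither difference passed. The smallest p of this test is 0.0286, and that of exact sign flips over the 4 pairs is 0.125, which both ratios reached. Without LG replicate 4 the differences were 0.90 and 0.70, and both then had an adjusted p of 0.0286 by exact permutation. That library had the lowest ratios in LG, and HG replicate 4, with the lowest in HG, stayed in. With any other single library left out, the adjusted p by exact permutation was 0.114 to 0.2.

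**Figure D3:**
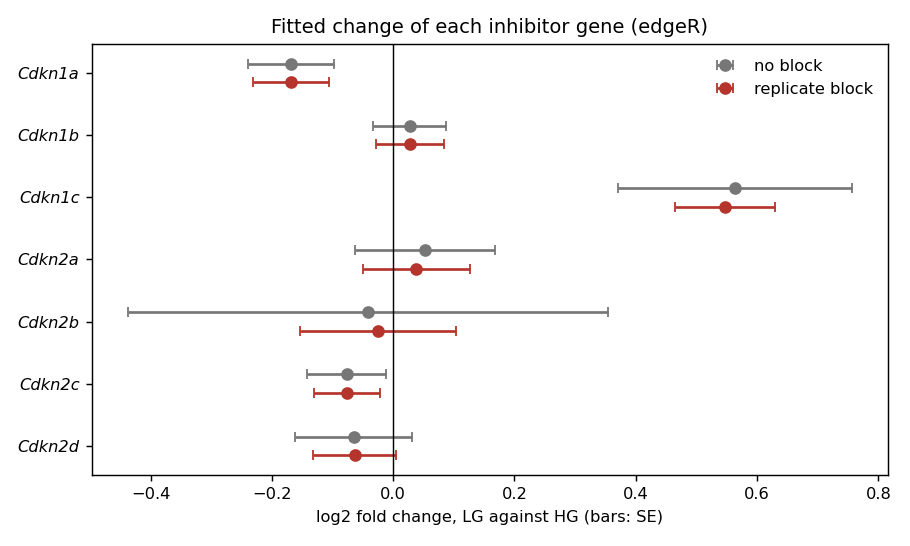
Log2 fold change (LG against HG) of each inhibitor gene with its SE, from edgeR without a block (grey) and with the replicate block (red). Cdkn1c is at 0.56 and 0.55, with the SE falling from 0.193 to 0.083 under the block, while the other 6 genes lie between -0.17 and 0.05.

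Among the INK4 genes, 0 of 4 passed with or without the block. Cdkn2c encodes p18, an inhibitor of CDK4 and CDK6, and lies on GRCm38 chromosome 4 at 109660876 to 109667189, minus strand. It was at 86.5, 86.8, 77.5 and 84.0 CPM in HG and at 81.3, 81.4, 76.5 and 78.3 CPM in LG. LG was lower in 4 of 4 pairs, by 0.02 to 0.10 on the log2 scale, and the groups overlapped. The log2 fold change with the block was -0.08 (SE 0.055, 95% interval -0.20 to 0.04, edgeR adjusted p = 0.578). With the GC and length trends removed it was -0.16 (edgeR adjusted p = 0.265).

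Cdkn2d, which encodes the INK4 protein p19, lies on GRCm38 chromosome 9 at 21288410 to 21291407, minus strand. It was at 35.01, 39.2, 42.1 and 44.4 CPM in HG and at 38.3, 34.2, 39.1 and 42.1 CPM in LG. LG was lower in 3 of 4 pairs and higher in pair 1, and the groups overlapped over most of their range. The log2 fold change with the block was -0.06 (SE 0.069, 95% interval -0.22 to 0.09, edgeR adjusted p = 0.731). It was -0.02 without pair 2, -0.13 without pair 1 and -0.12 with the GC and length trends removed, and passed in none of these.

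Cdkn2a and Cdkn2b lie side by side on GRCm38 chromosome 4, minus strand, at 89274471 to 89294653 and 89306299 to 89311039. Cdkn2a makes p16 and, from another start, p19Arf, which binds MDM2, and counts per gene do not part the transcripts. It was at 25.0, 26.1, 24.9 and 24.5 CPM in HG and at 32.4, 26.1, 23.0 and 22.7 CPM in LG. Pair 1 was higher in LG by 0.38 on the log2 scale, pair 2 was level, and pairs 3 and 4 were lower by 0.11 each, so pair 1 stood apart. The log2 fold change with the block was 0.04 (SE 0.088, 95% interval -0.16 to 0.23, edgeR adjusted p = 0.885), and it was -0.07 without pair 1 and -0.07 without LG replicate 1 in the fit without the block.

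Cdkn2b encodes p15, which TGF-β signalling induces in many cell types, and was the inhibitor gene with the fewest counts, 96 to 281 per library. It was at 4.31, 4.98, 1.81 and 2.22 CPM in HG and at 4.40, 4.39, 1.802 and 2.33 CPM in LG. The pairs split by sign, 2 higher and 2 lower in LG, and the log2 fold change with the block was -0.03 (SE 0.129, 95% interval -0.31 to 0.26, edgeR adjusted p = 0.952). The values fell instead into the shared preparation of numbers 1 and 2, all at 4.31 CPM or more, and the other libraries, all at 2.33 CPM or less.

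Differences between the 3 preparations were tested across all genes in a model with glucose as a second term. Of the 7 inhibitor genes, 2 passed, Cdkn2b (edgeR adjusted p = 0.000483) and Cdkn1c (edgeR adjusted p = 0.00619), where 13.7% of all tested genes passed. For Cdkn2b the means were 4.52 CPM in the shared preparation, 1.804 in that of number 3 and 2.28 in that of number 4. Astrocyte markers moved with these libraries: the list summed to 1742 to 1882 CPM in the shared preparation, 804 to 820 CPM in that of number 3 and 683 to 760 CPM in that of number 4. Fibroblast and mural markers did too, with 31.3 to 53.05 CPM in the shared preparation and 9.22 to 10.5 CPM in the rest. The part of those cells in the Cdkn2b result was not tested, and date, animals and handling change with the code and cannot be told apart.

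For Cdkn1c the preparation means were 14.8 CPM (shared), 13.5 CPM (number 3) and 9.17 CPM (number 4). Its preparation call was lost without LG replicate 4 (edgeR adjusted p = 0.107). Number 4 gave the low library at each glucose level. Cdkn1a (0.774), Cdkn1b (0.885), Cdkn2a (0.369), Cdkn2c (0.489) and Cdkn2d (0.188) did not pass by edgeR adjusted p between preparations.

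**Figure D4:**
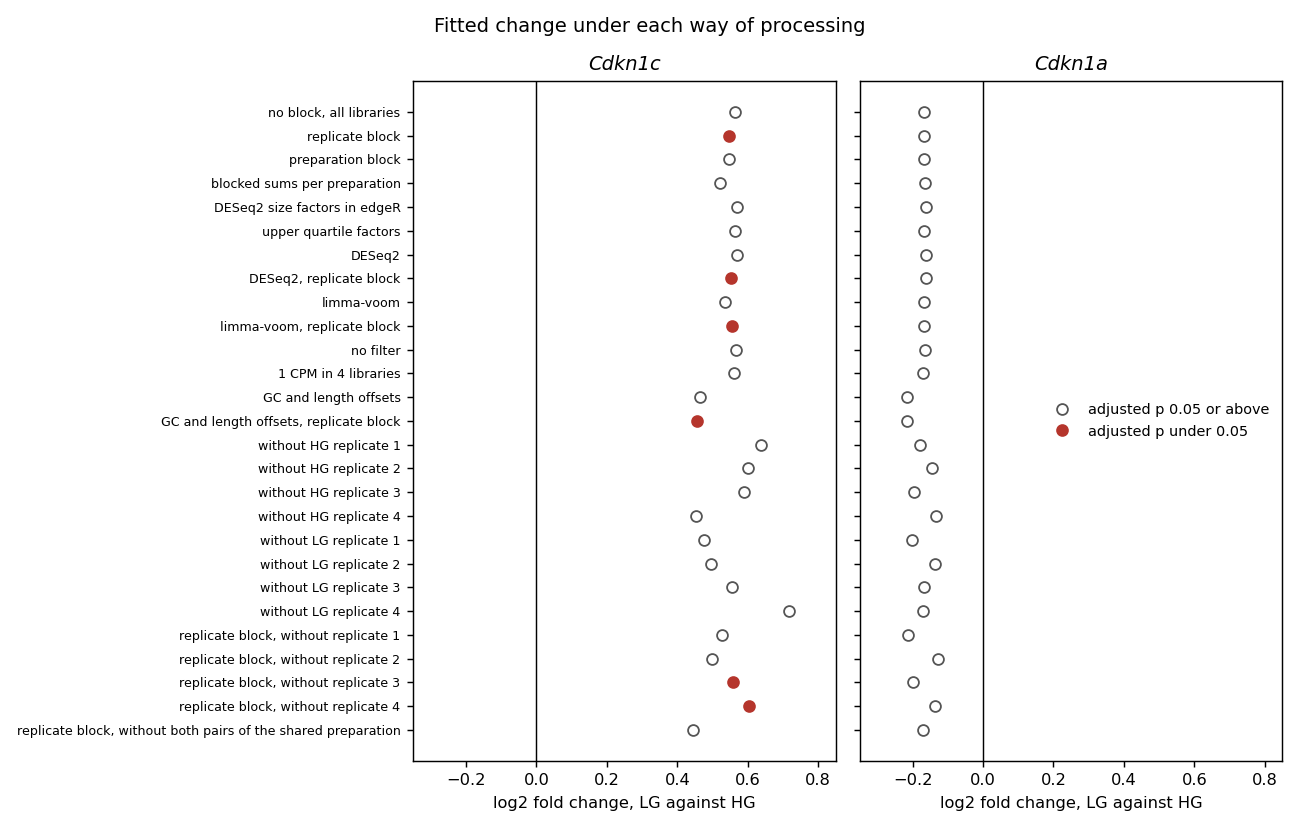
Log2 fold change of Cdkn1c and Cdkn1a (LG against HG) under each way of processing, with filled points where the adjusted p was under 0.05. Cdkn1c stays between 0.44 and 0.72 and passes in 6 of 26 alternatives, each of them with the replicate block, while Cdkn1a stays between -0.22 and -0.13 and passes in 0.

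The genes whose log2 CPM followed each inhibitor most closely over the 8 libraries were found among 11540 genes with a mean of at least 5 CPM. For Cdkn1c these were Sept3 (r = 0.984), Mff (0.954) and Rph3a (0.954), and for Cdkn1a they were Tfdp1 (0.979), Pxylp1 (0.960) and Jpt2 (0.952). For Cdkn1b they were Gm10762 (0.964), Smad1 (0.953) and Ggh (0.938). For Cdkn2b, Gclc (0.992), Scd1 (0.992) and Il6st (0.988) were closest, and of these 3 all passed between preparations by edgeR. They were picked for following Cdkn2b, which differed between preparations, so this is no separate result. Rph3a passed between preparations too (edgeR adjusted p = 0.0227), as did 13.7% of all tested genes. The closest to Cdkn2c were Timeless (0.968), Rfwd3 (0.964) and Larp1 (0.957). For Cdkn2d they were Ndufaf8 (0.977), Gm15583 (0.977) and Mllt11 (0.959), and for Cdkn2a Stub1 (0.953), Dcbld1 (0.948) and Glrx (0.942). Libraries of 1 preparation share much of their variation, and with this many genes and 8 points such values describe the libraries only.

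Among the partners that the inhibitors act on, 1 passed. Of 14 cyclins, kinases and PCNA, 13 had a negative log2 fold change with the block and the median was -0.11, against 0.00 over all tested genes, where 9386 of 18905 were negative. The 1 that passed was Ccnd2, a D-type cyclin that INK4 proteins keep from CDK4 and CDK6, which fell by 0.34 (SE 0.057, edgeR adjusted p = 0.0392), from 431 to 338 CPM. Its call was lost without pair 1, 2 or 3 (edgeR adjusted p = 0.117, 0.247 and 0.104), with the preparation block (0.139) and with sums per preparation (0.101). Ccne2, a partner of CDK2, was at -0.43 (edgeR adjusted p = 0.0508), and Ccnd1 at -0.31 (0.0747). With the GC and length trends also removed, Ccnd1 passed at -0.33 (edgeR adjusted p = 0.0355), and Ccne2 did not, at -0.26 (0.210). Pcna, which p21 binds, was at -0.20 and Ccna2 at -0.16, and neither passed.

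Among genes downstream of the kinases, 2 passed with the block, both proliferation genes. Of 13 retinoblastoma and E2F genes 11 were negative with the block, with a median of -0.13, and 0 passed. E2f1 was at -0.37 (edgeR adjusted p = 0.0689, or 0.0239 with the GC and length trends removed), E2f7 at -0.28, Rbl1 at -0.26 and E2f2 at -0.22. Of 14 proliferation genes all 14 were negative, with a median of -0.24, and 2 passed. Mki67, the Ki-67 antigen of dividing cells, fell by 0.78, and Cenpe, a mitotic kinesin, by 0.79 (edgeR adjusted p = 0.00777 and 0.0383). Mcm3 (-0.31), Cenpf (-0.80), Top2a (-0.26) and Bub1 (-0.29) did not pass with the block. With the GC and length trends also removed, 4 of the 14 passed, with Mcm3 at -0.34 (edgeR adjusted p = 0.0160) and Cenpf at -0.65 (0.0161) added.

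Genes for the breakdown of Cip/Kip proteins were evenly split, 7 of 14 negative, with a median of -0.01. Dtl, the substrate receptor of the CRL4 ubiquitin ligase that acts on p21, fell by 0.46 (SE 0.085, edgeR adjusted p = 0.0498). It was the 1 of the 14 that passed. The call was lost without pair 1, 2 or 3 (edgeR adjusted p = 0.223, 0.263 and 0.0519), with the preparation block (0.145), with sums per preparation (0.152) and by limma-voom with the block (0.0512). Skp2, the receptor that brings p27 and p57 to the SCF ligase, was at -0.21 (edgeR adjusted p = 0.194). Fbxw7 (-0.17), Rnf123 (0.17) and Cul1 (-0.13) did not pass.

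Of 21 tested transcription factors with known effects on inhibitor genes, 13 were positive with the block and the median was 0.02. Id3, a factor that holds back E proteins, rose by 0.46 (SE 0.070, edgeR adjusted p = 0.0346), from 17.3 ± 4.07 to 23.6 ± 4.68 CPM (SD, n = 4), and was the 1 that passed. Its relatives Id4 and Id1 were at 0.43 (edgeR adjusted p = 0.0561) and 0.25 (0.287), and Id4 passed at 0.51 with the GC and length trends also removed (edgeR adjusted p = 0.0232). Klf6 was at -0.26 and Zbtb17, the Miz-1 factor that MYC acts through at the p15 and p21 genes, at 0.09, and neither passed.

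Of 17 Polycomb genes, which repress the INK4 locus, 10 were positive, the median was 0.06 and 0 passed. Suz12 was at -0.30 and Ezh2 at -0.13, both subunits of the methylating complex, while Ezh1 was at 0.17 and Pcgf2 at 0.16. Of the 12 genes listed around the imprinted Cdkn1c, 8 were tested, 4 of them positive, and 0 passed. Kcnq1ot1, the long noncoding RNA that silences Cdkn1c on the paternal copy, had a mean of 14.9 ± 6.90 CPM in the HG libraries, against 9.55 ± 3.54 CPM in those of LG (SD, n = 4). Its log2 fold change with the block was -0.62 with an SE of 0.324 (edgeR adjusted p = 0.473), and it was -0.22 with the GC and length trends removed. Kcnq1ot1 was lower in LG in 3 of 4 pairs, and over the fits run it ran from -1.02 to -0.18. It passed only in the blocked fit without pair 4, at -1.02 (edgeR adjusted p = 0.0493), where 0.787% of all genes passed. Osbpl5 (0.21), Cd81 (0.09) and Cars (-0.08) did not pass.

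Beside Cdkn1a, 15 of 20 other p53 targets were negative with the block, with a median of -0.11, and 0 passed. Plk2 was at -0.22 (edgeR adjusted p = 0.123), Pmaip1, an apoptosis gene, at -0.33 (0.148), Tnfrsf10b at -0.25 (0.204) and Mdm2, the ligase that degrades p53, at -0.25 (0.222). Over the list, 7 of 20 were lower in LG in every pair and 2 of 20 higher, against 11.0% and 10.8% of all genes. This was not particular to p53 targets. Of the proliferation genes 10 of 14 were lower in every pair and 0 higher, and of the cyclins and kinases 6 of 14 and 0. Of the premyelinating genes 10 of 16 were higher in every pair and 1 lower. DESeq2 with the block called Plk2 (adjusted p = 0.0390) and Pmaip1 (0.0444). That fit called 2.51% of all genes and 24 of the 44 genes named from the related lists, so these calls were not particular to p53 targets.

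Premyelinating genes, which mark the step after the progenitor, were positive in 15 of 16 with a median of 0.28, and 3 passed. Neu4 rose by 0.76, Myrf by 0.60 and Fa2h by 0.52 (edgeR adjusted p = 0.00576, 0.00871 and 0.0346). Gpr17 was at 0.38, Bcas1 at 0.32, Sirt2 at 0.30 and Nkx2-2 at 0.24, with edgeR adjusted p of 0.0523, 0.109, 0.0943 and 0.138. Gpr17 passed with the GC and length trends also removed (edgeR adjusted p = 0.0355). In contrast to Cdkn1c, which was lowest in the preparation of number 4, the summed premyelinating level was highest there, at 4213 to 5090 CPM against 2135 to 2670 CPM in the shared preparation.

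Of the 44 genes named from these lists, the 8 that passed with the replicate block were Ccnd2, Dtl, Id3, Mki67, Cenpe, Neu4, Myrf and Fa2h. Like Cdkn1c, all 8 also passed by DESeq2 with that block and with the GC and length trends removed, and 7 passed by limma-voom. With the preparation code as the block 0 of the 8 passed, and with sums per preparation 4 did (Mki67, Cenpe, Neu4 and Myrf). Without pair 2 the number was 0, without pair 1 it was 3 (Mki67, Cenpe and Neu4), without pair 3 it was 4 (Mki67, Neu4, Myrf and Fa2h), and without pair 4 it was 7, all but Cenpe. DESeq2 with the block called 24 of the 44, the most of any fit run, and 2.51% of all genes. The 44 were picked by their p with that block in edgeR. Calls on them, or on the 8, in other fits with the block are therefore no separate support.

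**Figure D5:**
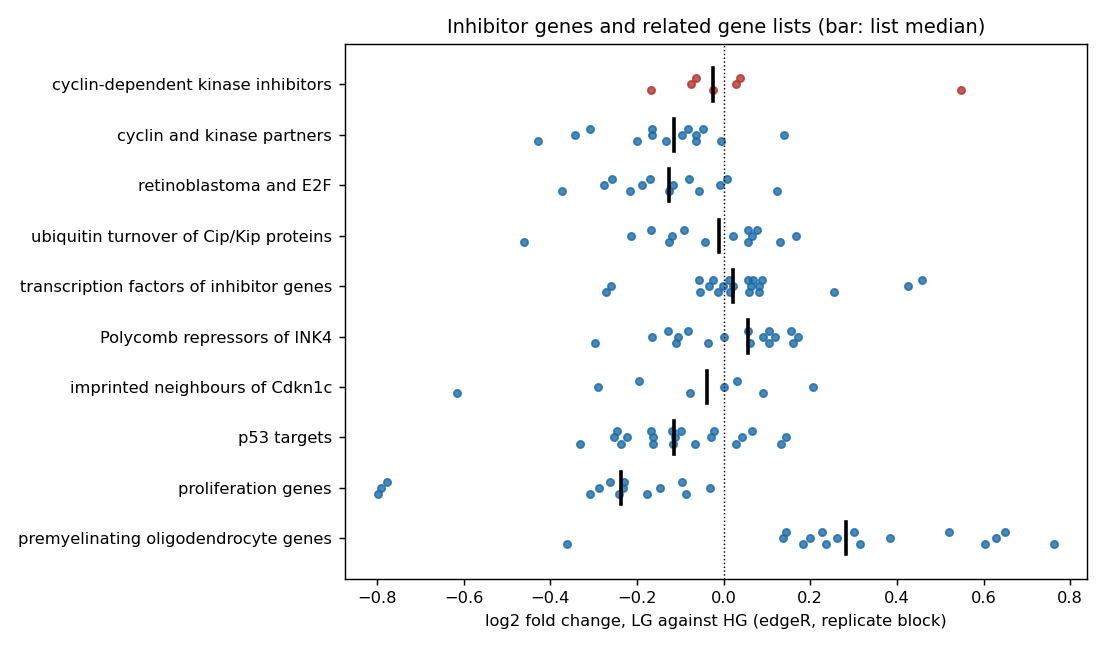
Log2 fold change (LG against HG, edgeR with the replicate block) of each tested gene in the inhibitor family (red) and in 9 related lists (blue), with the list median as a bar. The inhibitors centre on -0.03 with Cdkn1c apart at 0.55, the proliferation genes on -0.24 and the premyelinating genes on 0.28.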

How the data were processed

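The 8 libraries came as 1 deposited table of unnormalized counts, with a row for each Ensembl ID. Per the submitters' processing notes the build was mm10, and the tools listed there, without their roles, are STAR, featureCounts, DESeq2 and CASAVA 1.8.2. Total counts exceed the read depth that the labels state, and whether mates were counted singly is not given in the sources used here. Symbols came from GENCODE M21 (GRCm38), which named 52073 of 56980 IDs. All 37 mitochondrial IDs are listed at 0.

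Counts were fitted in R 4.3.3 with edgeR 4.0.16 (filterByExpr, TMM, robust quasi-likelihood test), with group as the only term in the main design. An SE is the log2 fold change divided by the square root of F, and 95% intervals use the t distribution of that fit. RPKM divide TMM-scaled CPM by the union of exons. Log2 CPM used a prior count of 2, ratios a pseudocount of 0.5. Deviations from group means correlated at r = 0.448 to 0.625 between same-numbered HG and LG libraries, and at most 0.419 between others, across genes, which are not independent. In this check 8 of 8 libraries correlated best with the library of their own number in the other group. The numbers were used as pairs on this ground, though the lowest same-number value lay close to the highest of the others. DESeq2 1.42.0, limma 3.58.1 (voom) and mgcv 1.9.3 (GC and length trends) served as alternatives. The fits were first tested on simulated data. There the fit without the block made no false call, but it missed most of the smaller changes put in. The fit with the block found most of them and made some false calls, more than its threshold allows for.

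All 7 genes are described. From each of 9 related lists the text names every gene that passed in either fit and up to 4 more with the smallest p with the block. The genes and lists were chosen with earlier results of these data known. Promoter windows are from RefSeq, GRCm38.p6.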

Additional observations from a re-analysis of the deposited data

Results flagged for a closer look

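Within 1 group of 4 libraries, a library was marked where its gap to the nearest other library was over 0.829 of the group's range. This was checked in 106 groups, for the inhibitor genes, their ratios and the named genes, and 3 were marked, against 5.3 that chance gives at 1 in 20. None was an inhibitor gene. For Ccna2, HG replicate 3 lay below its group at 7.49 log2 CPM, with the next library at 7.52. For Ccnd1, HG replicate 2 lay below its group at 9.12 log2 CPM, with the next at 9.23. For Sirt2, LG replicate 2 lay below its group at 8.07 log2 CPM, with the next at 8.32.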

How the results depend on the processing

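The number of inhibitor genes called between LG and HG, 0 without a block, was 1 (Cdkn1c) with the replicate block in edgeR, DESeq2 and limma-voom, with that block and the GC and length offsets, and with that block without replicate 3 or replicate 4. It was 0 in the other 20 alternatives. Over all genes the count of calls, 0 without a block, was 79 with the replicate block, 131 with the offsets and the block, 474 by DESeq2 and 67 by limma-voom with the block, 4 by DESeq2 without it, 1 with the preparation block and 17 with blocked sums per preparation. With the replicate block and 1 pair left out it ran from 0 (without replicate 2) to 148 (without replicate 4), with 6 without replicate 1 and 39 without replicate 3. Without both pairs of the shared preparation, chosen after the data were seen, it was 0.

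Between preparations 2 inhibitor genes passed, and 1 to 2 with a library left out. The ratio of Cdkn1c to Cdkn1a ran from 0.55 to 0.90 and that of Cdkn1c to Cdkn1b from 0.41 to 0.70 with a library left out, and both passed only without LG replicate 4. Cdkn2a turned negative with blocked sums (-0.0044), without LG replicate 1 (-0.069, against up to 0.11 with another library left out), with the block without replicate 1 (-0.073) and without the shared preparation (-0.11). Cdkn2b turned positive by limma-voom (0.0018), with a library left out (up to 0.24, from -0.25), with the block without replicate 2 (0.033) and without the shared preparation (0.036). Cars ran from -0.15 to 0.00098 (without LG replicate 4), and Id4 from -0.093 and -0.050 (without LG replicates 2 and 1) to 0.90. The other 5 inhibitor genes kept their sign in all 26 alternatives. The causes were not tested. With 96 to 281 counts, Cdkn2b is the inhibitor gene whose counts limit it most.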
